A study of Rattus norvegicus with 8 samples.

Results

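NF-kappaB is a family of transcription factors built as dimers of related DNA-binding subunits, which stay in the cytoplasm while bound to inhibitors of the I-kappaB family. Signals from Toll-like, interleukin and tumour necrosis factor receptors lead to loss of the inhibitor, the dimers enter the nucleus, and among the genes they induce are their own inhibitors, which closes a negative feedback loop. In lung this system is known for inducing chemokines, adhesion molecules and other inflammatory genes in epithelium, endothelium and leukocytes. The 10 genes described here are the 5 subunit genes Nfkb1, Nfkb2, Rel, Rela and Relb, and 5 genes grouped here as inhibitors, Nfkbia, Nfkbie, Nfkbiz, Bcl3 and Tnfaip3. They were found in the value table by their gene symbols, and each has 1 transcript cluster, the array's unit of measurement for a gene. They are 10 of the 22093 genes with a named row, and all 10 were above the level filter and tested.

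Whole lungs of 8 newborn Rattus norvegicus pups were measured on Affymetrix arrays, 1 array per lung. The 4 lungs titled deficient are from pups whose dams were fed a diet with 0 IU of vitamin D per kg, and these dams were mated only once their serum 25-hydroxyvitamin D was below 10 ng/ml. The 4 lungs titled adequate are from pups of dams fed 1000 IU per kg, called control in the titles. Dams arrived at 4 weeks of age and serum was tested at 8 weeks. All were kept without ultraviolet light at Denver altitude on diets with 0.5% calcium and 0.4% phosphorus, the deficient dams were mated with vitamin D-replete males, and pups were born spontaneously at term. The age label reads day 0 and the growth protocol day of life 1. No genotype or strain is given in the sources used here, nor is it said whether pups of a group were littermates. The p-values below therefore set each group difference against the spread between these lungs. Whether that includes the spread between dams, which received the diets, is not known.

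The deposited sources disagree on which lungs are which. All 8 of the 8 columns compared in the authors' deposited table held, to within 5e-05 on the log2 scale, the values of the same-numbered lung of the opposite group by title. Nothing in the files settles this, so every direction below is by title, as titled deficient minus titled adequate, and it turns round if the authors' table is named rightly. The arrays also differed in Y-linked signal, the mean log2 signal of 5 Y-linked rows. It read 5.21, 5.25, 5.24 and 5.18 on titled deficient 1 to 4, against 10.35, 10.29, 6.81 and 6.03 on titled adequate 1 to 4. Titled adequate 1 and 2 were thus far above the others, and titled adequate 3 and 4 lay between. All titled deficient arrays lay below all titled adequate arrays, so this signal runs with the group and cannot be told apart from it. Pup sex is not among the sample labels used here. Member counts are given below with and without each of these pairs of lungs, as are the values of members whose call or size turned on them. The tissue label fits the markers: 11 of 11 lung epithelial genes were above the level filter in the mean over all arrays. These genes were not level between the groups, as 5 of the 11 were lower in titled deficient and 0 higher. Of all genes tested, 13.7% were lower and 8.24% higher.

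The promoters of most of these genes carry the DNA motif that NF-kappaB dimers bind. These sequences are shown because the members are known as targets of the factor they encode or act on. RefSeq promoter windows on build GRCr8, from 250 bases before to 50 bases after each gene's start, were present for 9 of the 10 members, all but Relb. Both strands were searched for the kappaB consensus, a motif of 10 bases, and overlapping matches were merged into a single site. A match describes the letters of a promoter and does not show that a factor binds there. At least 1 site was found in 8 of the 9 windows, against 8.47% of the 17125 windows of measured genes. More than 1 site was found for 2 members, Rel and Tnfaip3, against 0.566% of those windows. Capitals mark the match in each stretch below, which is written on the strand of the gene.
Nfkb1, chr2:226805435-226805474: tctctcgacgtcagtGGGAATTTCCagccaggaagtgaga
Nfkb2, chr1:255108339-255108378: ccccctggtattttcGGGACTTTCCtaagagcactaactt
Rel, chr14:101922132-101922172: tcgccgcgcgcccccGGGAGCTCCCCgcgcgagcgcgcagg
Rel, chr14:101921995-101922035: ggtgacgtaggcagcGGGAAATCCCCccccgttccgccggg
Nfkbia, chr6:78597079-78597118: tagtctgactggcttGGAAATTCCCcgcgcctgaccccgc
Nfkbie, chr9:22948012-22948051: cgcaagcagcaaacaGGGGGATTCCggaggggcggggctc
Nfkbiz, chr11:58251693-58251732: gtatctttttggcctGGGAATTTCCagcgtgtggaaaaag
Bcl3, chr1:88613569-88613608: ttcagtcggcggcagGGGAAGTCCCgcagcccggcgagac

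Tnfaip3 had 3 sites, the first bases of which lie 170, 67 and 55 bases before the gene's start. Its 250 bases before the start (chr1:15543980-15544229, minus strand) are given whole, beside those of Nfkbiz (chr11:58251471-58251720, plus strand), since these genes had the largest differences among the members. The subunit gene Rela (chr1:212354086-212354335, plus strand) is shown as the member whose window had no match.
Tnfaip3: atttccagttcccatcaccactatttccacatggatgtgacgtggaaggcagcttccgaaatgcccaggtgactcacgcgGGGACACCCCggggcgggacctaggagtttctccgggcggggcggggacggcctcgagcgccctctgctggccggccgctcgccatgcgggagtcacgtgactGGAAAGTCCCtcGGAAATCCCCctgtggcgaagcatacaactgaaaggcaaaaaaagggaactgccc
Nfkbiz: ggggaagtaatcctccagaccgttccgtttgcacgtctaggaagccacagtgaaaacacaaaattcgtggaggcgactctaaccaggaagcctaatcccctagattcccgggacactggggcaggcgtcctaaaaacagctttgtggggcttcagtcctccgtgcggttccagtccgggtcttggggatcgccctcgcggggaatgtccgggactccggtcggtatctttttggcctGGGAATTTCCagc
Rela: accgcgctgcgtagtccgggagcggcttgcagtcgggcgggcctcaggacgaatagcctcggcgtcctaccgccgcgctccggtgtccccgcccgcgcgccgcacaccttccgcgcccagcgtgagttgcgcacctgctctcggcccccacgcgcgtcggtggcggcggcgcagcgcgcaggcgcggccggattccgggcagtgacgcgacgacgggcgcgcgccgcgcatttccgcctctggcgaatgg

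**Figure D1:**
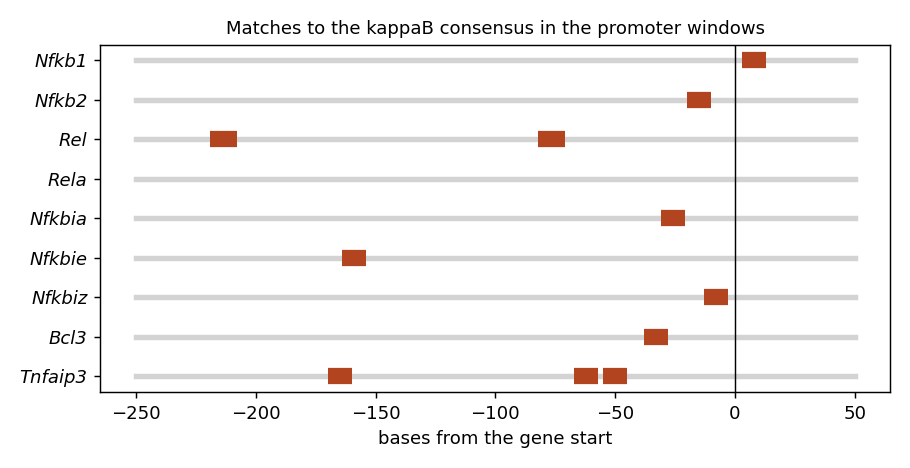
Positions of matches to the kappaB consensus (red bars) in the promoter windows of 9 members (grey lines, 250 bases before to 50 after the gene's start), with distance from the start in bases on the x axis. The sites of Nfkb2, Nfkbia, Nfkbiz and Bcl3 begin 20, 31, 13 and 38 bases before the start, that of Nfkb1 begins 3 bases after it, and Rela has none.

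Of the 10 members, 7 were lower in titled deficient lungs at an adjusted p under 0.05, 0 were higher and 3 did not pass. For comparison, 13.7% of all 15465 genes tested were lower, 8.24% were higher and 21.9% changed in either direction. All 5 genes grouped as inhibitors were lower, against 2 of the 5 subunit genes, Rel and Nfkb2. The group is a label and not a shared action: Nfkbiz and Bcl3 encode nuclear I-kappaB proteins and Tnfaip3 a ubiquitin-editing enzyme. Of the lower genes, Bcl3 and Nfkbie read below the negative control median on all 8 arrays, so the size of their differences is less sure. The signals did not overlap between groups for 8 of the 10 members, each lower in titled deficient, an arrangement seen in that direction for 16.7% of all genes and in the other for 11.3%. The median log2 difference was -0.44 over the members and -0.018 over all genes. The members were proposed with results of these data known, so the counts describe these genes and are no independent evidence.

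**Figure D2:**
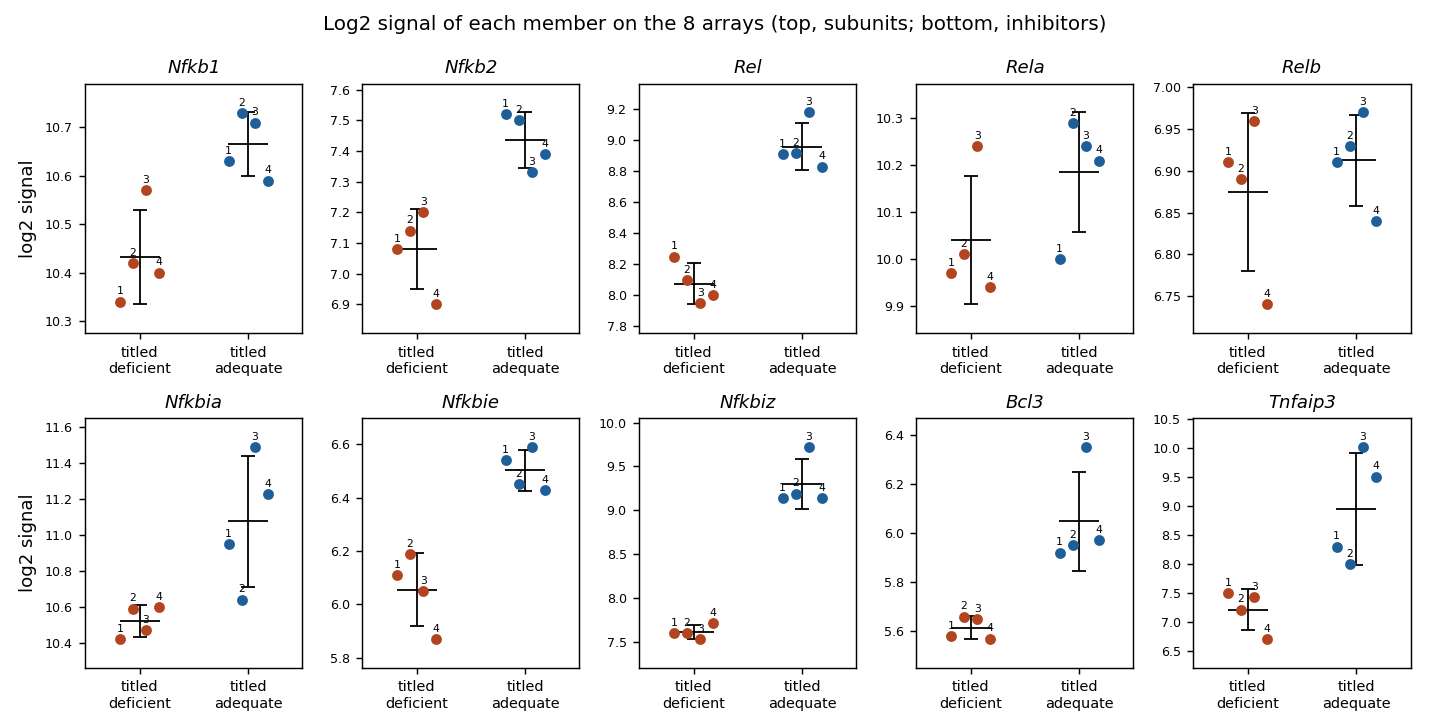
Log2 signal (y axis, scaled separately for each gene) of the 10 members on the 4 titled deficient (red) and 4 titled adequate (blue) arrays, with array numbers beside the points and bars for the mean ± SD. The groups are apart for 8 genes and overlap for Rela and Relb.

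Among the subunits, Rel differed most. It encodes c-Rel, a subunit with a strong activation domain that is best known from lymphoid and myeloid cells. Its log2 signals were 8.25, 8.10, 7.95 and 8.00 on titled deficient 1 to 4, against 8.91, 8.92, 9.18 and 8.83 on titled adequate 1 to 4. The groups were 0.58 apart, a gap wider than the range within either of them. The log2 difference was -0.89 (SE 0.10, adjusted p = 0.000797), so the signal was 1.85-fold lower in titled deficient. It stayed between -0.95 and -0.82 when any single array was left out.

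Nfkb2 encodes the precursor of the subunit that pairs with RelB in the non-canonical pathway. It read 7.08, 7.14, 7.20 and 6.90 on the titled deficient arrays, against 7.52, 7.50, 7.33 and 7.39 on the titled adequate arrays. The groups did not overlap, and the log2 difference was -0.36 (SE 0.09, adjusted p = 0.019). Nfkb2 did not pass without titled adequate 1 and 2 (-0.28, adjusted p = 0.10).

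Nfkb1 encodes the precursor of the usual partner of RelA. It read 10.34, 10.42, 10.57 and 10.40 in titled deficient, against 10.63, 10.73, 10.71 and 10.59 in titled adequate. The groups were only 0.02 apart, and the log2 difference of -0.23 (SE 0.09) did not pass (adjusted p = 0.0844). With arrays centred on their medians it did pass (-0.30, adjusted p = 0.0445).

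Rela, whose product is the main activating subunit of the canonical pathway, and Relb, whose product acts in the non-canonical pathway, did not pass. Rela read 9.97, 10.01, 10.24 and 9.94 in titled deficient, against 10.00, 10.29, 10.24 and 10.21 in titled adequate. The ranges overlapped, and the log2 difference of -0.14 had a 95% interval of -0.38 to 0.09 (adjusted p = 0.337). Relb read 6.91, 6.89, 6.96 and 6.74 in titled deficient, against 6.91, 6.93, 6.97 and 6.84 in titled adequate. Its log2 difference was -0.04, with a 95% interval of -0.20 to 0.13 (adjusted p = 0.745).

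**Figure D3:**
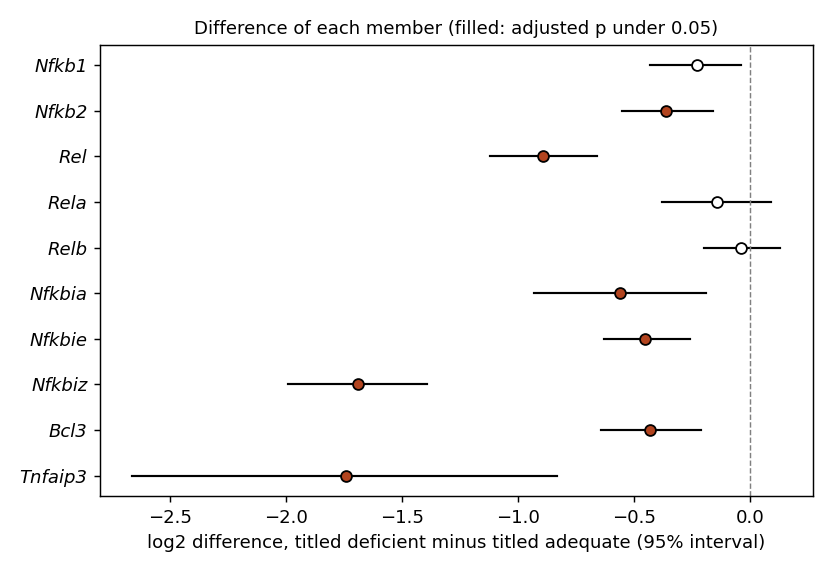
Log2 difference of each member, titled deficient minus titled adequate, on the x axis with its 95% interval (n = 4 each). Filled points had an adjusted p under 0.05: Nfkb2, Rel and the 5 inhibitor genes lie left of 0, and the interval includes 0 for Rela and Relb.

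The genes grouped as inhibitors fall into classical I-kappaB proteins, nuclear I-kappaB proteins and an editing enzyme of ubiquitin chains. Tnfaip3 encodes the ubiquitin-editing enzyme, which shuts down signalling above the I-kappaB kinase. Its log2 signals were 7.50, 7.21, 7.42 and 6.70 on titled deficient 1 to 4, against 8.30, 7.99, 10.02 and 9.51 on titled adequate 1 to 4. All titled deficient lungs were lower, but the titled adequate lungs themselves spread over 2.03, with arrays 3 and 4 far above 1 and 2. The log2 difference was -1.74 (SE 0.41, adjusted p = 0.0167), or 3.35-fold lower. Set against titled adequate 1 and 2 alone it was -0.93 (adjusted p = 0.0242), and against titled adequate 3 and 4 alone -2.56 (adjusted p = 0.000788), so its size depended on which pair was used while the call did not.

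Nfkbiz encodes I-kappaB zeta, a nuclear protein that is induced by interleukin and Toll-like receptor signals and acts on a secondary set of inflammatory genes. It read 7.60, 7.60, 7.53 and 7.71 in titled deficient, against 9.14, 9.19, 9.72 and 9.14 in titled adequate. The groups were 1.42 apart, with a range of 0.19 within titled deficient and 0.59 within titled adequate. Its log2 difference was -1.69 (SE 0.13, adjusted p = 9.37e-05), or 3.23-fold lower, and it ranged from -1.74 to -1.55 with any single array left out. Among all genes tested the size of this difference stood above 99.4% of the others.

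Bcl3 is the gene of another nuclear I-kappaB protein, which binds dimers of the Nfkb1 and Nfkb2 products. Its mean level was the lowest of the members, at percentile 39.0 of all genes. Its signals were 5.58, 5.66, 5.65 and 5.57 in titled deficient, against 5.92, 5.95, 6.35 and 5.97 in titled adequate. The groups did not overlap, and the log2 difference was -0.43 (SE 0.10, adjusted p = 0.0137). Without titled adequate 3, the highest array, it was -0.33 (adjusted p = 0.0104).

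Nfkbie encodes I-kappaB epsilon, a classical inhibitor that holds dimers in the cytoplasm. It read 6.11, 6.19, 6.05 and 5.87 in titled deficient, against 6.54, 6.45, 6.59 and 6.43 in titled adequate. The groups were 0.24 apart and the log2 difference was -0.45 (SE 0.08, adjusted p = 0.00599). Nfkbie and Bcl3 were dimmer than the negative controls, whose median was 6.825 to 7.221 per array, on all 8 arrays, Relb on 4 of the 8, and Nfkb2 and Tnfaip3 on 1 each, titled deficient 4. Probes for antigenomic sequence averaged 3.71 to 3.925 per array, below all of these. The negative control median itself lay above the median of all rows, which was 5.531 to 5.679 per array.

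Nfkbia encodes I-kappaB alpha, the classical inhibitor that is degraded and resynthesised within each round of signalling. It read 10.42, 10.59, 10.47 and 10.60 in titled deficient, against 10.95, 10.64, 11.49 and 11.23 in titled adequate. The titled deficient lungs lay close together, and titled adequate 2 was only 0.04 above the highest of them. The log2 difference was -0.56 (SE 0.17, adjusted p = 0.0387), or 1.47-fold lower. This call was lost in 7 of the 8 fits that left out a single array (adjusted p = 0.0548 to 0.0906), the exception being without titled adequate 2 (-0.71, adjusted p = 0.0123). It was also lost without titled adequate 3 and 4 (-0.28, adjusted p = 0.169), while without titled adequate 1 and 2 it was -0.84 (adjusted p = 0.00493).

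Within the titled adequate lungs the members did not vary alike. Tnfaip3, Nfkbia and Bcl3 were higher on both titled adequate 3 and 4 than on 1 and 2, by 1.62, 0.56 and 0.23 on the log2 scale between the means of the pairs. For Nfkb2 that difference was -0.15, with both arrays 3 and 4 below 1 and 2. For Nfkbiz it was 0.26, and the pairs were not apart. Rel, Nfkbie, Nfkb1, Rela and Relb did not separate the pairs, with differences between -0.03 and 0.08. For Bcl3 the pair difference came from titled adequate 3 (6.35), since titled adequate 4 (5.97) lay close to titled adequate 2 (5.95). Without titled adequate 3 and 4, 6 members were lower in titled deficient (11.1% of all genes), and without titled adequate 1 and 2 also 6 (11.6% of all genes), Nfkbia being lost in the first case and Nfkb2 in the second. With the Y-linked signal as a covariate 6 members were lower as well (9.03% of all genes), again without Nfkb2 (-0.24, adjusted p = 0.229). That signal was nearly flat in titled deficient (5.18 to 5.25), so this fit rests on the same contrast between the titled adequate pairs. It is no separate check and cannot tell the signal apart from the group.

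**Figure D4:**
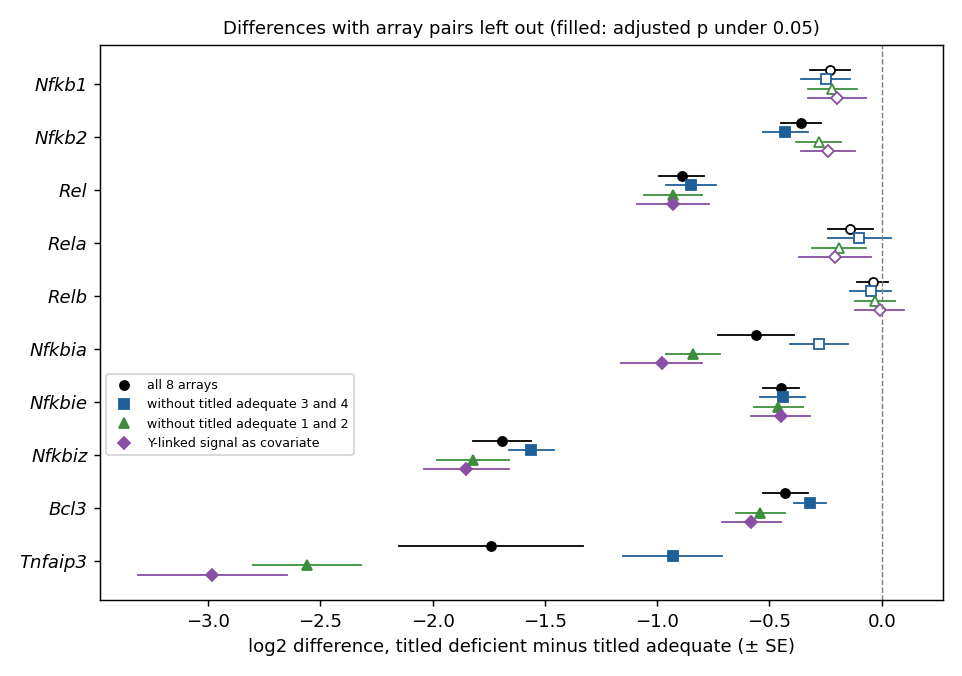
Log2 difference ± SE of each member with all 8 arrays, with either pair of titled adequate arrays left out (3 and 4, or 1 and 2), and with the Y-linked signal as a covariate. Rel and Nfkbie keep nearly the same position, while Nfkbiz moves between -1.56 and -1.85, Tnfaip3 between -0.93 and -2.98 and Nfkbia between -0.28 and -0.98.

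The authors' deposited table lists 6 of the 10 members: Rel and the 5 inhibitor genes. The authors' deposited table gives signed folds, deficient over control by its own names, of 3.86 for Tnfaip3, 3.27 for Nfkbiz, 1.85 for Rel, 1.51 for Nfkbia, 1.36 for Nfkbie and 1.36 for Bcl3. The arrays are the same and the names are exchanged, so these signs run opposite to those by title. The sizes were not all equal to those given here: Tnfaip3 had 3.86 against 3.35 and Nfkbia 1.51 against 1.47, while Rel had 1.85 in both. The reason was not tested.

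Of 36 tested kinases, adaptors and ubiquitin ligases that activate NF-kappaB, 3 were lower in titled deficient (8.33%) and 3 higher (8.33%), with a median log2 difference of -0.04. The lower share was below that of all genes (13.7%) and the higher share near it (8.24%), and the 6 genes are given as single genes. The lower ones were Ikbke, an I-kappaB kinase-related gene of the interferon pathway (7.18 ± 0.15 in titled deficient, 8.37 ± 0.15 in titled adequate, SD, n = 4 each, log2 difference -1.19, adjusted p = 0.000194), the Toll-like receptor adaptor gene Myd88 (-0.46, adjusted p = 0.00939) and the ubiquitin ligase gene Birc3 (-0.42, adjusted p = 0.0292). The higher ones were Ripk1, a kinase of the tumour necrosis factor receptor complex (10.16 ± 0.05 in titled deficient, 9.31 ± 0.14 in titled adequate, log2 difference 0.85, adjusted p = 0.000602), Map3k7, which encodes the kinase TAK1 (0.57, adjusted p = 0.00568), and the paracaspase gene Malt1 (0.76, adjusted p = 0.0251). The genes of the I-kappaB kinase complex did not pass: Chuk had a log2 difference of 0.34 (adjusted p = 0.0803), Ikbkb of -0.27 (adjusted p = 0.175) and its scaffold gene Ikbkg of -0.02 (adjusted p = 0.866). Without titled adequate 3 and 4, Myd88 and Birc3 did not pass (adjusted p = 0.0502 and 0.0716), and without titled adequate 1 and 2 Malt1 did not (adjusted p = 0.116). Birc3 read below the negative control median on 5 of the 8 arrays. Map3k14, the kinase gene of the non-canonical pathway, had -0.09 (adjusted p = 0.644).

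Of 17 other inhibitor genes tested, 4 were lower in titled deficient (23.5%), 1 was higher (5.88%) and 12 did not pass. Of all genes tested, 13.7% were lower and 8.24% higher. Zc3h12a, which encodes an RNase that degrades inflammatory transcripts, was 2.01-fold lower (log2 difference -1.01, SE 0.26, adjusted p = 0.022). The ubiquitin-binding gene Tnip1, a partner of Tnfaip3, was 1.41-fold lower and the receptor gene Sigirr 1.34-fold lower. Zc3h12a and Sigirr read below the negative control median on the 4 titled deficient arrays, so the size of their differences is less sure. The lower gene beyond the naming rule was Nfkbib, the third classical I-kappaB gene (-0.32, adjusted p = 0.0434), which was named after its value was seen. Set against titled adequate 1 and 2 alone, Nfkbib did not pass (adjusted p = 0.184) and the difference of Zc3h12a was -0.50 (adjusted p = 0.017). Tnip3, a relative of Tnip1, went the other way: it read 7.15 ± 0.19 in titled deficient and 6.26 ± 0.13 in titled adequate (log2 difference 0.89, adjusted p = 0.000881). Tnip3 read below the negative control median on 6 arrays, including all titled adequate arrays, so the size of its difference is less sure too. The number of lower genes was 2 without titled deficient 4 (12.6% of all genes) and also 2 without titled adequate 4 (10.2% of all genes).

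Target genes were lower for 14 of the 24 tested (58.3%), higher for 2 (8.33%), and the median log2 difference was -1.02. The level filter removed 11 of the 35 listed targets, so these shares are of the genes it kept. With no level filter, 14 of the 35 were lower (8.96% of all genes) and 2 higher (6.53%). Titled deficient means were under the filter (5.32) for the lower genes Cxcl2 (5.01), Ccl3 (5.19), Nos2 (5.3), Csf2 (4.99) and Mmp9 (4.88). Their titled adequate signal kept them in the test, so the size of their differences is less sure. The mean log2 level of all 35 listed targets was 6.41 to 6.58 on the titled deficient arrays. It was 6.98, 7.0, 7.94 and 7.59 on titled adequate 1 to 4, so arrays 3 and 4 stood above 1 and 2. Without titled adequate 3 and 4, 13 targets were lower (11.1% of all genes), and without titled adequate 1 and 2, 16 were (11.6% of all genes). The neutrophil chemokine gene Cxcl1 read 7.03 ± 0.14 in titled deficient and 10.42 ± 1.33 in titled adequate (log2 difference -3.39, adjusted p = 0.0031). The cytokine gene Il1b had a log2 difference of -3.03 (adjusted p = 0.00356), and on the 4 titled deficient arrays it read below the negative control median. Set against titled adequate 1 and 2 alone, Cxcl1 differed by -2.27 and Il1b by -1.98 (adjusted p = 3.43e-05 and 2.74e-05). Also lower were the monocyte chemokine gene Ccl2 (-2.50, adjusted p = 0.00536) and the siderophore-binding gene Lcn2 (-2.73, adjusted p = 0.00185). Mmp9, a gelatinase gene, was lower too (adjusted p = 0.00263), with a titled deficient mean below the level filter of 5.32. It read below the negative control median on all 8 arrays, so the size of its difference is less sure. Lcn2 and Mmp9 are also products of neutrophil granules. The adhesion gene Icam1 did not pass (-0.80, adjusted p = 0.0567). Its difference was -1.11 without titled adequate 1 and 2 (adjusted p = 0.00577) and -0.50 without 3 and 4 (adjusted p = 0.282). Tnf lay below the level filter and was not tested (4.34 ± 0.17 in titled deficient, 5.46 ± 0.56 in titled adequate). Against that direction, the adhesion gene Vcam1 was 2.07-fold higher in titled deficient (log2 difference 1.05, adjusted p = 0.0167) and Cflar, an inhibitor of death receptor signalling, 1.36-fold higher (adjusted p = 0.0179). Without titled adequate 3 and 4 Cflar did not pass (adjusted p = 0.0764), and without 1 and 2 Vcam1 differed by 0.60. The number of higher targets was 1 without titled adequate 3 and 4 (7.22% of all genes). The kappaB consensus stood in 11 of 25 promoter windows of target genes, 3 of 26 of the activating genes and 3 of 16 of the other inhibitors. It stood in 8.47% of the windows of all measured genes, and the count for the activating genes is near that share. These windows are of listed genes with a row, whether or not they passed the level filter.

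Neutrophil and macrophage markers moved with the members. Lymphocyte markers had a median log2 difference of 0.06 over only 5 tested genes, 2 lower and 1 higher, with 6 more below the level filter. In whole lung fewer cells of a type and less RNA per cell cannot be told apart. Neutrophil markers were lower in titled deficient for 10 of 12 tested (83.3%), against 13.7% of all genes. Their summed linear signal over 16 genes was 1390 to 2040 in titled deficient and 17900 to 34200 in titled adequate, and Ctsg, Fpr1, Ltf and Prtn3 were below the level filter. The leading markers S100a9 and Cd177 differed by -4.49 and -5.46 (log2). Macrophage and monocyte markers were lower for 9 of 12 (75.0%) and higher for 1 (8.33%), against 13.7% and 8.24% of all genes. Only Ms4a7 was below the filter. The summed signal of these markers over 13 genes was 5370 to 6700 in titled deficient and 8480 to 10900 in titled adequate. The highest of them, Mrc1 and C1qa, differed by -0.31 (adjusted p = 0.261) and -0.92 (adjusted p = 0.00194). The part of these cells in the members' differences was not tested.

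Immediate early genes, which many stimuli induce within minutes, were lower for 18 of 20 (median log2 difference -1.34), and their mean log2 level was 7.85 to 8.20 on titled deficient arrays and 9.17 to 9.86 on titled adequate arrays. Nr4a1, Nr4a2 and Ier3 differed by -4.39, -3.07 and -1.17. Their part in the members' differences was not tested either. Of the other marker lists, lung epithelium had 5 of 11 lower and 0 higher, and lymphocytes 2 of 5 lower and 1 higher. Red cells had 1 of 6 lower and 1 higher, endothelium 0 of 5 lower and 1 higher, and heart muscle 0 of 4 in either direction. Over all genes 13.7% were lower and 8.24% higher. Y-linked genes were lower for 3 of 4, where the row tested for Uty is placed on the X chromosome by its identifier.

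**Figure D5:**
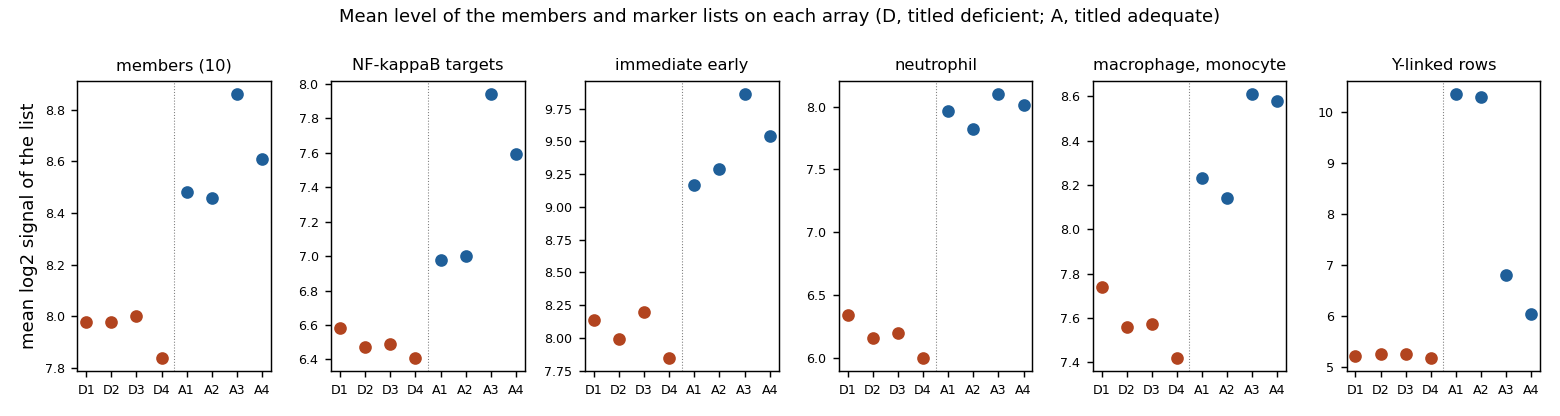
Mean log2 signal (y axis, scaled separately) of the 10 members, the NF-kappaB targets, immediate early, neutrophil and macrophage and monocyte lists, and the Y-linked rows, on each array (D, titled deficient; A, titled adequate). The member mean is 7.84 to 8.00 on the titled deficient arrays and 8.46 to 8.86 on the titled adequate arrays, highest on titled adequate 3, as is the mean of the targets (7.94).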

How the data were processed

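Values were deposited on the log2 scale, made by the authors with SST-RMA at gene level, per the labels, and the submitters' processing notes name Affymetrix Expression Console as the software. Neither its version nor a genome build is given in the sources used here. RMA makes array distributions alike, so differences are relative to the array. A further table deposited by the authors gives log2 values per lung and a signed fold score for their comparison, negative where the ratio is under 1. Its linear copies were not used.

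Of 68842 transcript clusters, 23446 carry exactly 1 symbol in the platform annotation, updated through gene identifiers to RefSeq for 22077. A gene was taken as its row of highest mean, and genes under percentile 30 of the means (log2 5.32) were left out. Testing of the remaining 15465 genes used R 4.3.3 and limma 3.58.1 (lmFit, then eBayes with a variance trend), 2-sided, with Benjamini-Hochberg adjustment over all of them and a threshold of 0.05. Differences are titled deficient minus titled adequate, and a fold is 2 to the size of the difference. The fit was tested on simulated data. The number of arrays, 4 per group, limits the precision.

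The members and lists were chosen with earlier results of these data known. Genes named are the members, up to 3 genes of smallest p in each direction per pathway list, a fixed set of kinase and target genes, the brightest markers of lists that moved with the members, and the 5 genes most like the members. Alternatives were the level filter, array normalization, the variance model, all rows, the replicate number as a block, leaving out arrays, and the Y-linked signal as a covariate.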

Additional observations from a re-analysis of the deposited data

Results flagged for a closer look

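In 2 of 20 checks, 1 for each member in each group, an array stood apart by Dixon's criterion, which chance alone meets in about 1 of 20. Both were on titled adequate 3. Nfkbiz read 9.72 there, against 9.14 to 9.19 on the other titled adequate arrays. Bcl3 read 6.35 there, against 5.92 to 5.97. Without that array the log2 differences were -1.55 for Nfkbiz and -0.33 for Bcl3, and both still passed (adjusted p = 2.69e-05 and 0.0104).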

How the results depend on the processing

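Over 19 alternatives per member (18 for Bcl3 and Nfkbie, which fell below the percentile 50 filter), Rel, Nfkbie, Nfkbiz, Bcl3 and Tnfaip3 passed in every fit made. Nfkb2 and Nfkbia kept their sign and lost the call in 3 and 9 fits. Relb, never called, ranged from -0.06 to 0.01 with single arrays left out, 0.01 without titled deficient 4. The labels do not say whether replicate numbers pair the lungs. Same-numbered lungs correlated at -0.353 to 0.044 in their deviations, and 0 of 4 titled deficient lungs was closest to its own number. Deviations from means of 4 arrays cannot exclude a pairing. With a replicate block 5 members were lower (7.74% of all genes), Nfkb2 and Nfkbia being lost (adjusted p = 0.0637 and 0.075). The block left 1197 genes lower and 561 higher, against 2116 and 1274, with 1 activating gene lower and 1 target higher. The Y-linked covariate left 1397 genes lower and 658 higher, 1 activating gene higher and 1 target higher. Median centring gave 712 genes higher and 5 activating genes lower. Of the genes called, 62.4% were lower as deposited, 71.3% after quantile normalization, 75.8% after cyclic loess and 80.2% after centring. The percentile 50 filter tests 16 targets and left 9 lower. Without titled adequate 3 and 4, 1 target was higher. Leaving out single arrays gave 1441 to 1945 genes lower and 737 to 1189 higher, 737 without titled deficient 2 and 810 without titled deficient 1, with 2 to 4 other inhibitors lower. Where no cause is evident from how an alternative is built, the cause was not tested. Signals near the negative controls limit what can be said of Bcl3, Nfkbie and Relb, and on titled deficient 4 of Nfkb2 and Tnfaip3.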

Other observations

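The genes whose signals over the 8 arrays were most like the mean standardised profile of the 7 lower members were Kctd13 (Pearson r 0.996), Lasp1 (0.994), Slc2a1 (0.994), Gadd45g (0.992) and Bhlhe40 (0.992). They are given as a description, since the arrays share the group difference that also runs through the members. Slc2a1, which encodes a glucose transporter, read 11.18 ± 0.11 in titled deficient and 12.20 ± 0.17 in titled adequate (SD, n = 4 each, log2 difference -1.02, limma adjusted p = 0.000521). Gadd45g, a stress-induced gene, read 7.66 ± 0.25 and 9.91 ± 0.57, with a log2 difference of -2.25 (limma adjusted p = 0.000639). Bhlhe40, a transcriptional repressor gene tied to the circadian clock, had a log2 difference of -1.14, Lasp1, which encodes an actin-binding protein, of -0.68 and Kctd13 of -0.37.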
